A study of Mus musculus with 6 samples.

Results

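Kupffer cell, leukocyte and erythroid genes were followed in RNA from the epithelium of mouse intrahepatic bile ducts (biliary epithelial cells). A set of 34 genes known from blood-derived cells was looked up by symbol in the table of normalized read counts, and 29 of them were among its 25302 rows. Expression of the other 5 (Cd3e, Cd8a, Nkg7, Gzma and Gzmb) was not analysed here, and no row of the table held fewer than 10 reads in total. The 3 Control samples carried floxed Sox9 alleles (genotype Sox9fl/fl), and the 3 Sox9cKO samples carried the same alleles and a Cre transgene (Sox9fl/fl:AlbCre+/-). Both groups thus share the floxed alleles, and they differ by the transgene, whose albumin promoter is active in hepatoblasts and hepatocytes. The labels used here give no age, sorting marker or number of animals per sample, so the p-values measure the spread between these samples, which may be technical.

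Kupffer cells are the resident macrophages of the liver. They sit in the sinusoids, take up bacteria, debris and ageing red cells, and are known for Clec4f, Vsig4, Timd4, Marco and Cd5l. Other leukocytes share the phosphatase Ptprc (CD45), lymphocytes add their antigen receptor subunits, and red cell precursors are known for globins and haem synthesis. Cd14 and Cd74 are also known outside blood cells.

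The libraries held between 11883496 and 16191990 reads in genes. Epcam, an epithelial surface marker, lay between 5501 and 8249 normalized reads in the 6 libraries, and Krt19, a bile duct keratin, between 11480 and 26648. Hepatocyte genes were also detected: Alb, the gene of serum albumin, had a mean of 25487 normalized reads, more per kilobase (10882) than Krt19 (8334) or Epcam (3175). The sum of 11 hepatocyte genes lay between 18972 and 37427 and overlapped between groups. Of the 11, limma called 2 higher and 0 lower, against 2.03% and 0.939% of all tested genes. The sum of 11 stellate cell and fibroblast genes was higher in all Sox9cKO libraries (4055 to 5356) than in Control (3390 to 4019), and the part of these cells in the results was not tested. The targeted gene Sox9 had 6043 to 6293 normalized reads in Control and 3165 to 3363 in Sox9cKO (53.2% of the Control mean), in the direction of the labels in each library. Endothelial genes differed most between libraries: the summed level of 12 of them was 14797, 48679 and 2116 in Control and 38228, 48697 and 7490 in Sox9cKO, here and below in order of replicate number, a 23.01-fold range that crossed the groups. The sum of 15 biliary genes spanned 1.34-fold.

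The blood-cell genes spanned a wide range of levels, and most had few reads. Csf1r, Cd14, Cd74 and Cd68 had means over the 6 libraries above 100 normalized reads, 17 genes had means between 10 and 100, and 8 had means below 10. These 8 (Coro1a, Tyrobp, Adgre1, Marco, Timd4, Cd3d, Ms4a1 and Alas2) lay between 0 and 21.01 normalized reads in single libraries and were not tested. For scale, counting error alone gives 10 reads a 95% Poisson interval of 4.8 to 18.4 reads.

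Levels of different genes can be compared only per length, so mean normalized reads were divided by exon length (GENCODE M21). On that scale Cd14 stood at 3068 reads per kilobase and Cd74 at 874, the 99.7th and 98.4th percentiles of all genes with a length. Csf1r followed at 191 (88.3rd percentile) and Cd68 at 114 (80.4th percentile). Ptprc, which nearly all leukocytes carry, stood at 1.12 reads per kilobase (8.44th percentile), and the Kupffer cell gene Clec4f at 16.5 (46.3rd percentile). The length merges all annotated exons of a gene, 18313 bases for Ptprc, so exons absent from the transcripts present lower its value. The median over the 29 genes was 8.13 reads per kilobase, against 1233 for the 15 biliary genes and 297 for the 12 endothelial genes. The plot of all genes by library gives the normalized read counts themselves, not divided by length.

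**Figure D1:**
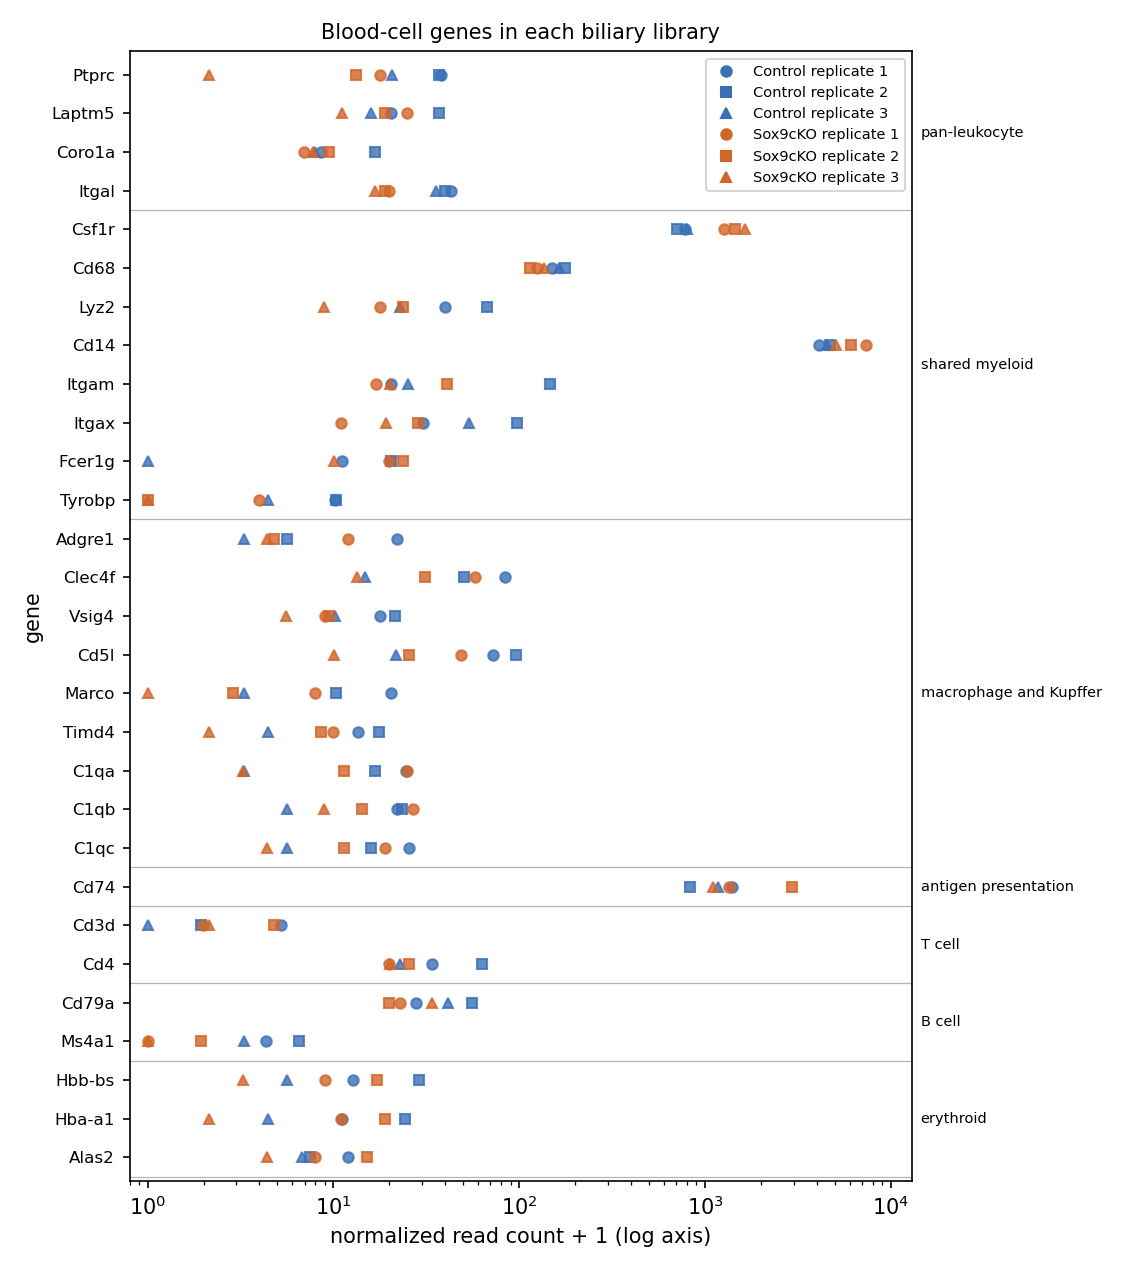
Normalized read count plus 1 (log axis) of each of the 29 blood-cell genes in the table (rows, grouped by lineage), with 1 point per library: circles, squares and triangles are replicates 1, 2 and 3, blue is Control and orange is Sox9cKO. Cd14, Cd74, Csf1r and Cd68 stand above 100 in all 6 libraries, and in the macrophage and Kupffer rows the triangles lie lowest within each colour.

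The question put to these genes was whether their level differed with the genotype of the biliary epithelium. Csf1r rose in Sox9cKO, and no other gene of the set passed the test without the replicate number as a block (limma, Benjamini-Hochberg adjusted p under 0.05). Of 21 genes tested, 1 was higher and 0 were lower, where 2.03% of all 17153 tested genes were higher and 0.939% were lower. At an unadjusted p under 0.05 limma had 2 higher (Csf1r and Cd14) and 5 lower (Ptprc, Itgal, Itgax, Lyz2 and Cd68), and the same p gave 10% higher and 7.74% lower over all tested genes. The count test edgeR called the same 1 higher and 0 lower (2 and 6 at an unadjusted p). Its calls over all tested genes were 1.82% higher and 1.04% lower, and 8.70% and 8.85% at an unadjusted p. DESeq2 called 1 higher and 1 lower (Itgax), against 4.20% and 2.87% of all tested genes.

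Same-numbered samples of the 2 groups deviated together, and a limma fit blocked on that number had 2 lower calls, Itgax and Lyz2, beside the higher call of Csf1r. Over all tested genes that fit called 5.06% higher and 2.99% lower. edgeR with the same block named the same genes, 1 higher and 2 lower, against 3.87% and 2.89% of all tested genes. The median log2 fold change of the 21 tested genes was -0.48, against 0.036 over all tested genes, and 16 of the 21 were below 0, as were 45.8% of all tested genes. These 21 passed a minimum mean of 10, so a gene high in a single group could enter through that group. The median is therefore a description of the set and no test of it. In RNA from a bulk of cells, fewer cells of a type and less RNA per cell cannot be told apart.

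**Figure D2:**
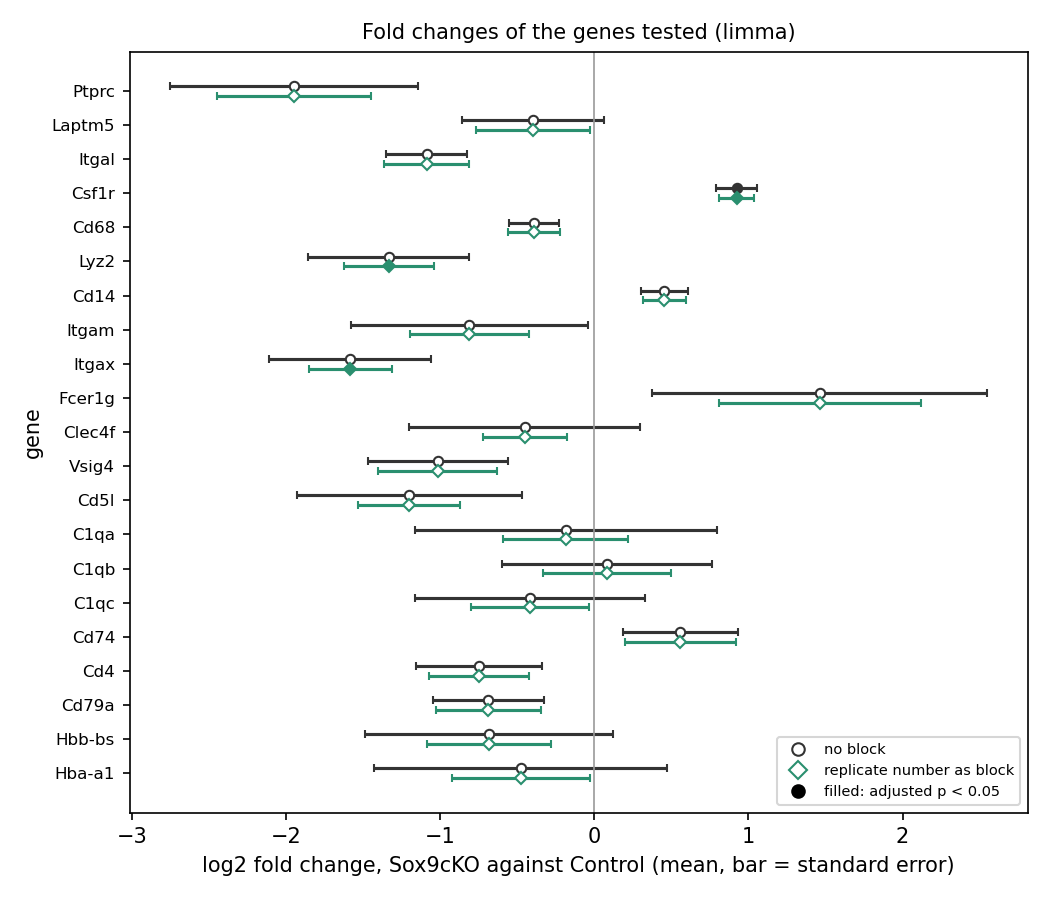
Log2 fold change (Sox9cKO against Control) of the 21 tested genes, with standard errors as bars, from limma without a block (circles) and with the replicate number as a block (diamonds). Filled symbols mark an adjusted p under 0.05: Csf1r in both fits at 0.92, and Itgax (-1.58) and Lyz2 (-1.33) with the block.

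Among receptors shared by myeloid cells, Csf1r (ENSMUSG00000024621), the receptor for the macrophage growth factors CSF1 and IL-34, was the gene called without the block. Its normalized read counts were 780.1, 705 and 797 in Control and 1266, 1446 and 1638 in Sox9cKO. The groups did not overlap, and the lowest Sox9cKO library stood well above the highest Control library. The mean rose from 761 ± 48.9 to 1450 ± 186 (SD, n = 3), a log2 change of 0.92 (standard error, SE, 0.13, limma adjusted p 0.0142, or 0.00675 with the block). Leaving out Control replicate 1, Control replicate 3 or Sox9cKO replicate 2 ended the call, with log2 changes of 0.94, 0.96 and 0.92 and limma adjusted p-values of 0.0728, 0.0549 and 0.0536. With the endothelial level as a covariate the log2 fold change was 0.98 (limma, adjusted p 0.00726).

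Adgre1 and Tyrobp, named here after their values were seen, had few reads. Adgre1, the macrophage surface receptor F4/80, had 21.01, 4.64 and 2.30 normalized reads in Control and 10.9, 3.78 and 3.40 in Sox9cKO. Tyrobp, the adaptor of many myeloid receptors, had 9.25, 9.28 and 3.46 in Control and 2.98, 0 and 0 in Sox9cKO, where a count of 0 allows up to 2.84 and 3.40 normalized reads in Sox9cKO replicates 2 and 3. All 3 Sox9cKO libraries were below all Control libraries for Tyrobp, while for Adgre1 the groups overlapped. Control replicate 3 and Sox9cKO replicate 1 each held 3 Tyrobp reads, so the scaling alone set these libraries apart. Sums of macrophage genes differed in direction with the list. The sum of the 9 macrophage and Kupffer genes was 293, 248.7 and 63.4 normalized reads in Control and 207, 111 and 44.2 in Sox9cKO, lower in Sox9cKO at each replicate number. The sum of 18 further macrophage genes was 1538, 1892 and 995 in Control and 2034, 2504 and 1605 in Sox9cKO, higher at each number, and in both sums the groups overlapped. The further genes include Mpeg1 and Cybb, which rose as Csf1r did, and Mertk, a receptor for dying cells, which reached 881 in Control replicate 2, above Csf1r in that library. The part of macrophage content in the Csf1r result was not tested.

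Pdgfrb, the neighbour of Csf1r in the RefSeq gene table, had between 47.9 and 93.7 normalized reads, with no separation of the groups. Of the ligands of the receptor, Csf1 had 1969, 3415 and 2628 normalized reads in Control and 2454, 5000.2 and 2785 in Sox9cKO, and was not called (limma). Il34 had 80.7, 93.7 and 96.8 in Control and 165, 143 and 206 in Sox9cKO, with no overlap. Its log2 fold change was 0.9025 (SE 0.20, limma adjusted p 0.0652, or 0.0326 with the block).

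Cd14, the co-receptor for bacterial lipopolysaccharide, was the most abundant gene of the set per length. It had 4117, 4692 and 4560.05 normalized reads in Control and 7351, 6098 and 5064 in Sox9cKO. All Sox9cKO libraries were above all Control libraries, but Sox9cKO replicate 3 was close to them. The log2 fold change of 0.46 with a standard error of 0.15 did not pass the test (limma, adjusted p 0.184, or 0.103 with the block). For 2 of the 29 genes (Csf1r and Cd14) the groups stood apart with Sox9cKO higher, as for 10.1% of all rows of the table.

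Cd74, the invariant chain of MHC class II, had 1402, 829.7 and 1175 normalized reads in Control and 1351, 2946 and 1097 in Sox9cKO. A single library, Sox9cKO replicate 2, stood above the others, and the groups overlapped. The log2 fold change was 0.56 (SE 0.37, limma adjusted p 0.499). Cd68, a lysosomal membrane protein used as a macrophage marker, had 149.6, 176 and 162 in Control and 123, 113 and 135 in Sox9cKO. All Sox9cKO libraries were lower, and the log2 fold change was -0.39 (SE 0.16, limma adjusted p 0.272).

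The remaining shared myeloid genes had far fewer reads, and Itgax and Lyz2 fell in the fit with the block. Itgax encodes the integrin chain CD11c of dendritic cells and macrophages, and Lyz2 the lysozyme of myeloid cells. Their promoters and those of Cd5l, C1qb and C1qc, which share a library pattern described further on, are printed here to set the 2 genes called lower with the block beside 3 Kupffer cell genes that were not called. Each sequence is the RefSeq window from 250 bases before to 50 after the gene start on build GRCm38.p6, read 5′ to 3′ along the gene, with capitals marking the letters GAGGAA or their reverse complement TTCCTC, the core of the binding motif of the myeloid factor PU.1.
Itgax, chr7:128129300-128129599, plus strand: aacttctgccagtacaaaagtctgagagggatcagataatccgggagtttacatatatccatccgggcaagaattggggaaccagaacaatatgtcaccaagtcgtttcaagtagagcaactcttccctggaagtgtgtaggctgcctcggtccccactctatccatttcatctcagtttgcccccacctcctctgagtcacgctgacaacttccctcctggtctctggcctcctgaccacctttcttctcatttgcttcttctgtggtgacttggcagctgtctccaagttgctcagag
Lyz2, chr10:117282223-117282522, minus strand: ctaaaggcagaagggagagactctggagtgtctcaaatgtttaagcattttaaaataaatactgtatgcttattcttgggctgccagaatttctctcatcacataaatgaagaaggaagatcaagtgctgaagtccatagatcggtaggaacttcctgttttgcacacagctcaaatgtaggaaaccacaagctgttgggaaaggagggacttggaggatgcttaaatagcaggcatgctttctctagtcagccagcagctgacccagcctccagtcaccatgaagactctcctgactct
Cd5l, chr3:87357631-87357930, plus strand: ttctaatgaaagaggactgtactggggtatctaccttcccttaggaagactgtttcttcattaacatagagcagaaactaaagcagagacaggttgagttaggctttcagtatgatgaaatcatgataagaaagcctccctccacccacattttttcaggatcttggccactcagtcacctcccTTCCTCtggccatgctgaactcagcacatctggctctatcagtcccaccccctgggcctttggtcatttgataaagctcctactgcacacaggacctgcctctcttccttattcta
C1qb, chr4:136886151-136886450, minus strand: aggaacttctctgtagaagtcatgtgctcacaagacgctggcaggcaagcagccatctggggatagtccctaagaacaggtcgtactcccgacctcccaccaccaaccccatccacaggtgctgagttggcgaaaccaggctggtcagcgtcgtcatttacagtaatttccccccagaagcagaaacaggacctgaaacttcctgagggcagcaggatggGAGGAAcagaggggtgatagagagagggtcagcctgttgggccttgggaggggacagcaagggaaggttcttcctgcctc
C1qc, chr4:136892865-136893164, minus strand: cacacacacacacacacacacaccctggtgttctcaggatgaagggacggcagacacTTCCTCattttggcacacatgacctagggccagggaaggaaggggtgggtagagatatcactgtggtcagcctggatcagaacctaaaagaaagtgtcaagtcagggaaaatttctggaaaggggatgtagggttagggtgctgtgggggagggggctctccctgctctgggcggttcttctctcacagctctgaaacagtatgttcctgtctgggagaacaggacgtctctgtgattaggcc
The letters begin at position -66 in Cd5l, -30 in C1qb and -193 in C1qc, counted from the gene start, and are not in the Itgax and Lyz2 windows. The printed windows do not divide the 2 kinds of gene. Among Kupffer cell genes not printed, Clec4f and Timd4 lacked the letters, and Vsig4 and Marco held them. Among shared myeloid genes not printed, Itgam and Cd68 held them and Fcer1g did not. Lyz2 was also lowest in replicate 3 of each group. RefSeq promoters were matched for 25 of the 34 genes, with 27 windows in all. These include Cd3e, Cd8a, Nkg7, Gzma and Gzmb, whose expression was not analysed, and the windows of Cd3e, Cd8a and Gzma held the letters. Of these windows 15 (55.6%) held the letters on either strand, against 28.3% of all 32851 promoter windows of the same length. A match describes the letters and shows no binding.

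Itgax had 29.4, 96.5 and 53.0 normalized reads in Control and 9.95, 27.4 and 18.1 in Sox9cKO. Replicate 2 was the highest library in each group, and all Sox9cKO libraries were below all Control libraries, by little between Control replicate 1 and Sox9cKO replicate 2. The log2 differences between same-numbered libraries were -1.47, -1.78 and -1.50, more alike than the libraries of a group. The log2 fold change, -1.58, had a standard error of 0.52 without the block (limma, adjusted p 0.176) and 0.27 with it (adjusted p 0.0191).

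Lyz2 showed the same steady difference within replicate numbers. Its normalized read counts were 38.7, 65.9 and 21.9 in Control and 16.9, 22.7 and 7.92 in Sox9cKO, so the groups overlapped slightly. The log2 differences by replicate number were -1.15, -1.50 and -1.36. Its log2 fold change, -1.33, had a standard error of 0.52 without the block (limma, adjusted p 0.243) and 0.29 with it (adjusted p 0.0417).

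Itgam, the integrin chain CD11b, rested on a single library. It had 19.3, 145.7 and 24.2 normalized reads in Control and 15.9, 39.7 and 19.2 in Sox9cKO. Without Control replicate 2 its log2 fold change was 0.089 in place of -0.81 (limma, adjusted p 0.644 with all libraries). Fcer1g, the common gamma chain of Fc receptors, had 10.1, 19.5 and 0 in Control and 18.9, 22.7 and 9.06 in Sox9cKO, with overlapping groups and a log2 change of 1.46 (SE 1.08, limma adjusted p 0.547). Without Control replicate 3, which held 0 reads, the log2 fold change of Fcer1g was 0.156. In the same-numbered libraries Fcer1g was higher in Sox9cKO and Tyrobp, the related adaptor, was lower at all 3 numbers.

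**Figure D3:**
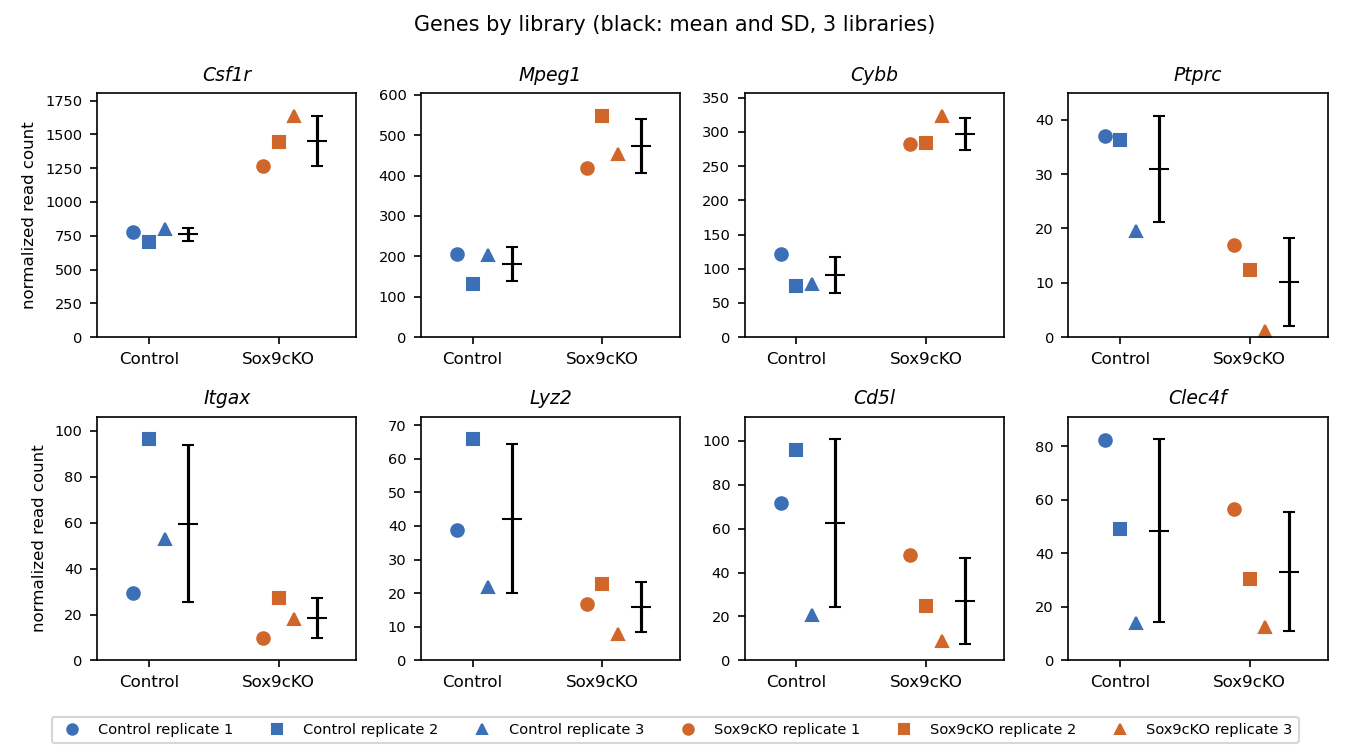
Normalized read count of Csf1r, 2 further macrophage genes called higher (Mpeg1 and Cybb), Ptprc, Itgax, Lyz2, Cd5l and Clec4f in each library (circles, squares and triangles: replicates 1, 2 and 3), with mean and SD of 3 libraries in black; each panel has its own axis from 0. Csf1r, Mpeg1 and Cybb are higher in every Sox9cKO library, Ptprc and Itgax are lower in every Sox9cKO library, and Cd5l and Clec4f overlap, with replicate 3 lowest in each group.

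None of the 9 macrophage and Kupffer cell genes was called, and all had their lowest level in replicate 3 of each group. Their summed level was 293, 248.7 and 63.4 normalized reads in Control and 207, 111 and 44.2 in Sox9cKO (mean 202 ± 122 against 121 ± 81.9, SD, n = 3). Replicate 3 was the lowest library in each group, and the groups overlapped. Replicate 3 was lowest in both groups for 9 of the 9 genes, as it was for 12 of the 12 endothelial genes and for 16.7% of all rows. None of the 6 tested was called by limma, with or without the block, and none had an unadjusted p under 0.05 without it, while edgeR gave Vsig4 such an unadjusted p and called none. With the block, limma had 2 of the 6 lower at an unadjusted p (Vsig4 and Cd5l) and 0 higher, against 11% and 15.3% of all tested genes. The part of the endothelial content, lowest in the same libraries, was not tested for this group as a whole.

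Clec4f, a galactose-binding lectin found on Kupffer cells, had 82.4, 49.2 and 13.8 normalized reads in Control and 56.7, 30.2 and 12.5 in Sox9cKO. Its libraries fall in the same order in both groups, and its log2 fold change was -0.45 (SE 0.75, limma adjusted p 0.81). Cd5l, a secreted macrophage scavenger protein, had 71.4, 95.6 and 20.7 in Control and 47.8, 24.6 and 9.06 in Sox9cKO. Each Sox9cKO library was below the Control library of its number, and the log2 fold change was -1.20 (SE 0.73, limma adjusted p 0.451, or 0.0762 with the block).

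Vsig4, a complement receptor of resident macrophages, was the 1 gene of this group whose genotypes did not overlap. It had 16.8, 20.4 and 9.22 normalized reads in Control and 7.96, 8.51 and 4.53 in Sox9cKO. The gap is within counting error: before scaling, Control replicate 3 held 8 reads and Sox9cKO replicate 2 held 9. The log2 fold change was -1.02 (SE 0.46, limma adjusted p 0.306, or 0.158 with the block). Marco, a scavenger receptor, had 19.3, 9.28 and 2.30 in Control and 6.96, 1.89 and 0 in Sox9cKO. Timd4, a receptor for dying cells, had 12.6, 16.7 and 3.46 in Control and 8.95, 7.56 and 1.13 in Sox9cKO, and both genes were lower in Sox9cKO at all 3 replicate numbers.

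The 3 chains of C1q, the complement recognition protein made by macrophages, differed by replicate number and were not called between genotypes. C1qa had 23.5, 15.8 and 2.30 normalized reads in Control and 23.9, 10.4 and 2.26 in Sox9cKO. C1qb had 21.01, 22.3 and 4.61 in Control and 25.9, 13.2 and 7.92 in Sox9cKO, and C1qc had 24.4, 14.8 and 4.61 in Control and 17.9, 10.4 and 3.40 in Sox9cKO. Control replicate 1 and Sox9cKO replicate 1 were thus nearly alike for C1qa, and replicate 3 was lowest for all 3 chains. Their log2 fold changes were -0.19, 0.083 and -0.42, with standard errors of 0.98, 0.68 and 0.74 (limma, adjusted p 0.951, 0.968 and 0.823).

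**Figure D4:**
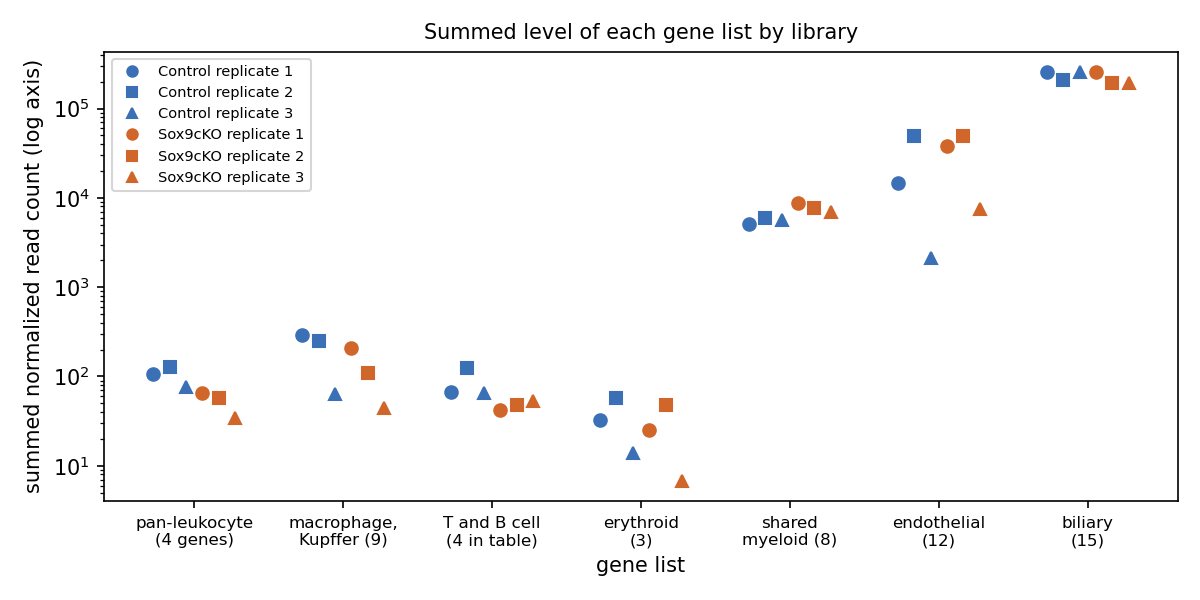
Summed normalized read count (log axis) of the genes of each list in each library, with circles, squares and triangles for replicates 1, 2 and 3, blue for Control and orange for Sox9cKO. The pan-leukocyte sum is lower in all Sox9cKO libraries, the macrophage and Kupffer, erythroid and endothelial sums are lowest in replicate 3 of each group, and the biliary sum spans 1.34-fold.

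Genes common to leukocytes were lower in Sox9cKO in sum, though no single gene passed the test. The sum of Ptprc, Laptm5, Coro1a and Itgal was 105.9, 127 and 76.04 normalized reads in Control and 65.7, 56.7 and 33.96 in Sox9cKO, with no overlap of the groups. The gap between the closest libraries was within counting error and rested on the scaling. Before it, the 4 genes in this order held 17, 13, 6 and 30 reads in Control replicate 3. In Sox9cKO replicate 1 they held 17, 24, 6 and 19. Ptprc, the receptor phosphatase CD45, had 37.0, 36.2 and 19.6 in Control and 16.9, 12.3 and 1.13 in Sox9cKO. The lowest value rests on 1 read in Sox9cKO replicate 3. Its log2 fold change was -1.95 (SE 0.80, limma adjusted p 0.266, or 0.0644 with the block).

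Itgal, the integrin chain of LFA-1 on lymphocytes and other leukocytes, had the smallest spread of these genes. It had 42.03, 39.0 and 34.6 normalized reads in Control and 18.9, 17.96 and 15.8 in Sox9cKO, with a wide gap between the groups. The log2 fold change was -1.09 (SE 0.26, limma adjusted p 0.0854, or 0.0633 with the block), and it passed the threshold without limma's intensity trend (0.0273) and with sample weights (0.039). Laptm5, a lysosomal protein of blood cells, had 19.3, 36.2 and 14.98 in Control and 23.9, 17.96 and 10.2 in Sox9cKO, with overlap. Coro1a, an actin-binding protein of leukocytes, lay between 5.97 and 15.8 in all libraries.

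Over the set, 7 of the 29 genes had all Sox9cKO libraries below all Control libraries (Ptprc, Itgal, Cd68, Itgax, Tyrobp, Vsig4 and Ms4a1). The same held for 13.6% of all rows. For Ptprc, Cd68, Itgax, Tyrobp, Vsig4 and Ms4a1 the gap between the groups was within counting error. Before scaling, Ptprc had 17 reads in both Control replicate 3 and Sox9cKO replicate 1, its closest libraries. Itgax had 35 reads in Control replicate 1 and 29 in Sox9cKO replicate 2. Cd68 had 178 reads (149.6 normalized) in Control replicate 1 and 119 (134.7 normalized) in Sox9cKO replicate 3. A further reading by replicate number gave 19 of the 29 genes lower in Sox9cKO at all 3 numbers and 3 higher, against 25.9% and 20.4% of all rows. Control replicate 2 was the highest library for 15 of the 29 genes, and Sox9cKO replicate 3 was the lowest for 14.

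Lymphocyte genes were few and low. Cd4, a T cell coreceptor that some macrophages also carry, had 32.8, 62.2 and 21.9 normalized reads in Control and 18.9, 24.6 and 19.2 in Sox9cKO. Cd3d, a T cell receptor subunit, had at most 4.2 in any library. The groups overlapped for Cd4 (log2 fold change -0.75, standard error 0.41, limma adjusted p 0.403). Cd79a, a subunit of the B cell receptor, had 26.9, 54.8 and 40.3 in Control and 21.9, 18.9 and 32.8 in Sox9cKO, while Ms4a1, the B cell antigen CD20, had at most 5.57. The Cd79a groups overlapped (log2 fold change -0.69, standard error 0.36, limma adjusted p 0.383), and the sum of these 4 genes was 67.2, 123 and 64.5 in Control and 41.8, 48.2 and 53.2 in Sox9cKO, with no overlap. The gap between Control replicate 3 and Sox9cKO replicate 3 in this sum was within counting error.

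The 3 erythroid genes had few reads, and neither globin was called. Hbb-bs, an adult beta globin, had 11.8, 27.8 and 4.61 normalized reads in Control and 7.96, 16.1 and 2.26 in Sox9cKO. Hba-a1, an adult alpha globin, had 10.1, 23.2 and 3.46 in Control and 9.95, 17.96 and 1.13 in Sox9cKO. Replicate 2 was highest and replicate 3 lowest in both groups for both globins. The paralogs Hbb-bt and Hba-a2 had at most 11.1 and 3.71, and because the copies are near-identical the split of reads between them is uncertain. Alas2, the first enzyme of haem synthesis in red cell precursors, lay between 3.40 and 14.2 and was highest in replicate 1 of Control and replicate 2 of Sox9cKO. The log2 fold changes of Hbb-bs and Hba-a1 were -0.68 and -0.48, with standard errors of 0.80 and 0.95 (limma, adjusted p 0.72 and 0.844).

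Further genes of the same lineages were read from lists of 85 genes, of which 69 were in the table and 35 were tested. limma called 2 higher (Mpeg1 and Cybb) and 0 lower, against 2.03% and 0.939% of all tested genes. At an unadjusted p under 0.05 it had 2 higher and 7 lower, against 10% and 7.74%. With the block it called 2 higher and 2 lower, against 5.06% and 2.99%. Mpeg1, the pore-forming perforin-2, rose from 181 ± 42.0 to 473 ± 67.0 normalized reads (SD, n = 3), with a log2 change of 1.40 (limma, adjusted p 0.0187). Cybb, the catalytic subunit of the phagocyte NADPH oxidase, rose from 91.5 ± 26.4 to 297 ± 23.5, with a log2 change of 1.72 (limma, adjusted p 0.0097). With the block Arhgap30 (-1.87) and Csf3r (-2.10), the receptor for the granulocyte growth factor, also fell (limma, adjusted p 0.0184 and 0.0441, or 0.08 and 0.0724 without it).

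Mpeg1, Cybb and Csf1r were each higher in every Sox9cKO library, while Spi1, the gene of the myeloid factor PU.1, had 15.1, 16.7 and 4.61 normalized reads in Control and 10.9, 11.3 and 3.40 in Sox9cKO. The median log2 fold change of the 35 genes was -0.34. Of the 18 further macrophage genes in the table, 12 were tested. Of the 18, 6 had all Sox9cKO libraries lower and 2 had all of them higher, against 13.6% and 10.1% of all rows. Some of the 6 had means below 10 normalized reads and were not tested. The 15 further leukocyte genes had a sum of 377, 857 and 248.9 in Control and 675, 649 and 194 in Sox9cKO, which, unlike the sum of the 4 pan-leukocyte genes, overlapped between groups. The 4-gene sum separated the genotypes by a gap within counting error, and the 15-gene sum did not separate them. A sum follows its most abundant genes. Inpp5d, the highest of the 15 by mean, had 80.7, 280 and 28.8 in Control and 204, 266 and 37.4 in Sox9cKO. It was lowest in replicate 3 of each group, as the endothelial sum was. By gene, the 9 tested of the 15 had a median log2 fold change of -0.89. At all 3 replicate numbers 7 of the 15 were lower and 2 higher, against 25.9% and 20.4% of all rows.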

How the data were processed

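RNA was sequenced from 6 biliary epithelial samples (total RNA, ribosomal depletion, a stranded kit with molecular identifiers, per the labels' protocols). The deposited table holds a signal, gene counts that the authors divided by 1 factor a sample. This was read from the values, since each was a whole multiple of its column's smallest value above 0 (100% whole, tolerance 0.001 reads). The submitters' processing notes name DESeq2 1.36.0 and the build GRCm39. Aligner, counter, annotation and use of strand and identifiers are not given in the sources used here. Columns were matched to samples by the numbers in the sample titles.

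Values were taken as log2(value + 1), and genes with a mean of at least 10 went into limma 3.58.1 under R 4.3.3 (lmFit, eBayes with intensity trend, two-sided, Benjamini-Hochberg over 17153 genes, threshold 0.05). The added 1 shrinks folds of low genes, but a library with almost no reads can still give a large fold. Vsig4 was -1.02 in limma, against -1.18 in both edgeR and DESeq2. Fcer1g went the other way, with 1.46 in limma against 0.69 in edgeR and 0.72 in DESeq2. So did Ptprc, with -1.95 against -1.63 and -1.65. Same-numbered samples deviated together (correlations across genes of 0.207, 0.472 and 0.542), while differently numbered samples had correlations from -0.437 to 0.0476. The numbering in the titles was therefore taken as pairing, and the fit with it as a block stands beside results it changed. The titles themselves state no pairing, and the correlations come from the same values as the fits. edgeR 4.0.16 and DESeq2 1.42.0 were run on the recovered reads (edgeR called 491 genes), beside other pseudocounts (0.1 and 5), filters (none and 50), TMM, quantile normalization, no trend, sample weights, and fits without each sample. A fit with an endothelial covariate was chosen after the data were seen. The scripts were tested on simulated reads.

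The genes and lists were chosen with earlier results of these data known. All 34 genes are accounted for. Genes with a mean of at least 10 are given in every sample, and of other lists the called genes (at most 3 a list) and defining markers. Adgre1, Tyrobp, Marco, Timd4, Mertk, Pdgfrb, Csf1, Il34, Inpp5d, Arhgap30 and Csf3r were named outside this rule after their values were seen. Exon lengths (GENCODE M21, 98.1% of rows) and promoters (RefSeq) are on GRCm38, so no coordinates of the build GRCm39 are given. Intervals and limits from read numbers cover counting error only.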

Additional observations from a re-analysis of the deposited data

How the results depend on the processing

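The number of genes called over the whole table was 510, and it moved to 1381 with the replicate block, 1160 with edgeR and the replicate block, 1214 with DESeq2 and 1043 with sample weights. It ranged from 200 to 389 when samples were left out singly. Of the listed genes 1 (Csf1r) was called higher in all fits with the 6 samples, and 0 to 1 when a sample was left out. Those called lower numbered 0, but 2 with the replicate block and 2 with edgeR and the replicate block (Itgax and Lyz2), 1 with DESeq2 (Itgax), 1 with the endothelial covariate (Lyz2), 1 without the intensity trend and 1 with sample weights (Itgal), and 0 in every fit without a sample. The log2 fold change of Csf1r stayed between 0.82 and 1.02. The median log2 fold change of the tested listed genes (-0.48) was 0.507 at a minimum mean of 50, where Cd14, Cd74, Csf1r and Cd68 alone were left, and ranged from -1.09 to -0.080 without single samples. The cause of the other differences was not tested.

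Direction changed for genes that were not called. C1qb (0.083) was -0.078 with DESeq2, -0.089 with edgeR, -0.047 with edgeR and the replicate block, -0.38 with the endothelial covariate and -0.15 with sample weights. Hba-a1 was 0.080 with sample weights. When samples were left out singly, the log2 fold change ranged from -1.06 to 0.60 for C1qa, -0.59 to 0.46 for C1qb, -1.03 to 0.16 for C1qc, -1.16 to 0.10 for Clec4f, -1.10 to 0.44 for Hba-a1 and -1.34 to 0.089 for Itgam.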
